A study of Medicago ruthenica with 3 samples.

Results

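SPL factors (squamosa promoter-binding-like proteins) were followed in leaf degradome libraries of Medicago ruthenica, a perennial legume of dry grassland. All transcripts whose annotation contains the words squamosa promoter-binding were taken, and a transcript with the gene symbol TGA1 was kept because it was listed with miR156. This gave 13 SPL transcripts of 6912 transcripts in the table, holding 27 of its 11390 entries, where an entry is 1 small RNA on 1 transcript. Of the 13 SPL transcripts 9 were listed with miR156 and 4 only with other small RNAs.

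Plants were 4-week-old seedlings when treatment began. Plants of the RW group had 2 days of rewatering that followed 15 days of drought, drought plants (DS) had no water for 15 days and reached 20% relative soil moisture, and control plants (CK) stayed watered at more than 80%. RW leaves were therefore taken 2 days later than DS and CK leaves, and this difference in age and rewatering cannot be told apart. The labels mention biological replicates, but each condition has 1 degradome library, so no difference here has a replicate check and each test compares 2 libraries and not 2 conditions.

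SPL factors are plant transcription factors that bind DNA through the SBP domain, and in Arabidopsis many of them carry a site for miR156 in the coding region or 3' UTR. The miRNA is abundant in young plants and declines with age, which frees the SPL factors to promote the adult leaf form and flowering, in part by raising miR172. In alfalfa, a close relative, the miR156 and SPL13 module has been tied to drought responses. When the miRNA guides a cut, the 3' part of the transcript is left with an uncapped 5' end, and such ends are what a degradome library captures. An uncapped end alone does not show a guided cut. The amount of transcript, the rate of cutting, fewer cells of a type and less RNA per cell cannot be told apart in these leaf libraries.

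Levels are given as whole reads and as RPM, reads per 1000000 of the deposited table. The table held 29617 reads in RW, 32719 in DS and 24790 in CK, so that 1 read was worth 33.8, 30.6 and 40.3 RPM. With 3 reads taken as the limit that a count of 0 allows, the floor was 101 RPM in RW, 91.7 RPM in DS and 121 RPM in CK. Most of the table is shallow, and only 13.0% of miRNA family and transcript pairs had at least 10 reads over the 3 libraries. Many pairs were listed in 1 library only, namely 2327 of 6078 listed in RW, 2158 of 5854 in DS and 1467 of 4742 in CK. As a check on the tissue, 23 transcripts annotated as photosystem, chlorophyll-binding or Rubisco proteins held 1077 reads in RW, 1919 in DS and 1041 in CK. Only 2 transcripts had nodulin words in their annotation, with 5, 0 and 3 reads, and no leghemoglobin was listed. The table lists only transcripts paired with a small RNA, so this absence cannot show that nodule RNA was lacking.

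The family name covers several small RNAs. The table holds 14 miR156 names, 6 of them of the 3p arm and 8 of the 5p arm or with no arm given, and no entry was named miR157. On SPL transcripts 6 names occurred, none of them of the 3p arm, in 19 entries. The other 8 SPL entries belonged to 8 small RNAs of other families. Entries of miR156 were summed per transcript before libraries were compared, and a read listed under more than 1 name may be counted more than once in such sums.

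The transcript with the symbol TGA1 had the most miR156 reads of the SPL factors. In maize, teosinte glume architecture 1 is an SPL factor that shapes the casing of the grain, and this M. ruthenica transcript was annotated as SPL13A of Medicago truncatula. It had 25 reads (844 RPM, exact 95% Poisson interval 546 to 1246) in RW, 10 reads (306 RPM, 147 to 562) in DS and 32 reads (1291 RPM, 883 to 1822) in CK. The DS library was the low one. By reads TGA1 stood at rank 135 of the pairs listed in RW, 466 in DS and 90 in CK.

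A transcript with no symbol, annotated as SPL6 isoform X1, had 25 reads (844 RPM, 546 to 1246) in RW, 12 reads (367 RPM, 190 to 641) in DS and 11 reads (444 RPM, 222 to 794) in CK. Here RW was the high library, and DS and CK lay within each other's intervals.

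SPL7 had 22 reads (743 RPM, 466 to 1125) in RW, 2 reads (61.1 RPM, 7.40 to 221) in DS and 8 reads (323 RPM, 139 to 636) in CK. The number of a Medicago SPL need not match that of Arabidopsis, where SPL7 is a copper-response regulator without a miR156 site. SPL7 moved in rank more than any other of the 6 SPL transcripts listed in all 3 libraries, standing at 155 in RW, 2259 in DS and 387 in CK. All pairs with 2 reads in DS share rank 2259. Among them was SPL6 DN19663_c0_g1, which stood at 734 in RW and 301 in CK.

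The 2 transcripts with the symbol SPL6 ran differently from each other. SPL6 DN19663_c0_g3, annotated as SPL16, had 13 reads (439 RPM, 234 to 751) in RW, 13 reads (397 RPM, 212 to 679) in DS and 5 reads (202 RPM, 65.5 to 471) in CK. SPL6 DN19663_c0_g1, annotated as a putative SPL19, had 6 reads (203 RPM, 74.3 to 441) in RW, 2 reads (61.1 RPM, 7.40 to 221) in DS and 10 reads (403 RPM, 193 to 742) in CK. The highest value was thus in RW for the g3 transcript, just above DS, and in CK for the g1 transcript. Both come from 1 component of the transcript assembly, as does SPL13A. Such transcripts share sequence, so the split of reads among them is uncertain, and the 3 together had 20, 15 and 15 reads in RW, DS and CK. In Arabidopsis SPL6 is known for a part in defence through immune receptors.

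SPL13 DN15141, whose closest annotation was SPL3 of lupin, had 13 reads (439 RPM, 234 to 751) in RW, 14 reads (428 RPM, 234 to 718) in DS and 20 reads (807 RPM, 493 to 1246) in CK. All 3 intervals overlap.

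Another 3 SPL transcripts were listed with miR156 in RW alone, where 38.3% of all listed pairs were in no other library. SPL13 DN17696, annotated as squamosa promoter-binding protein 1, and SPL12 had 3 reads each (101 RPM, 20.9 to 296), and SPL13A had 1 read (33.8 RPM, 0.855 to 188). All are at or under the floor of 3 reads, so no ratio is given and their absence in DS and CK was not distinguishable at this depth.

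**Figure D1:**
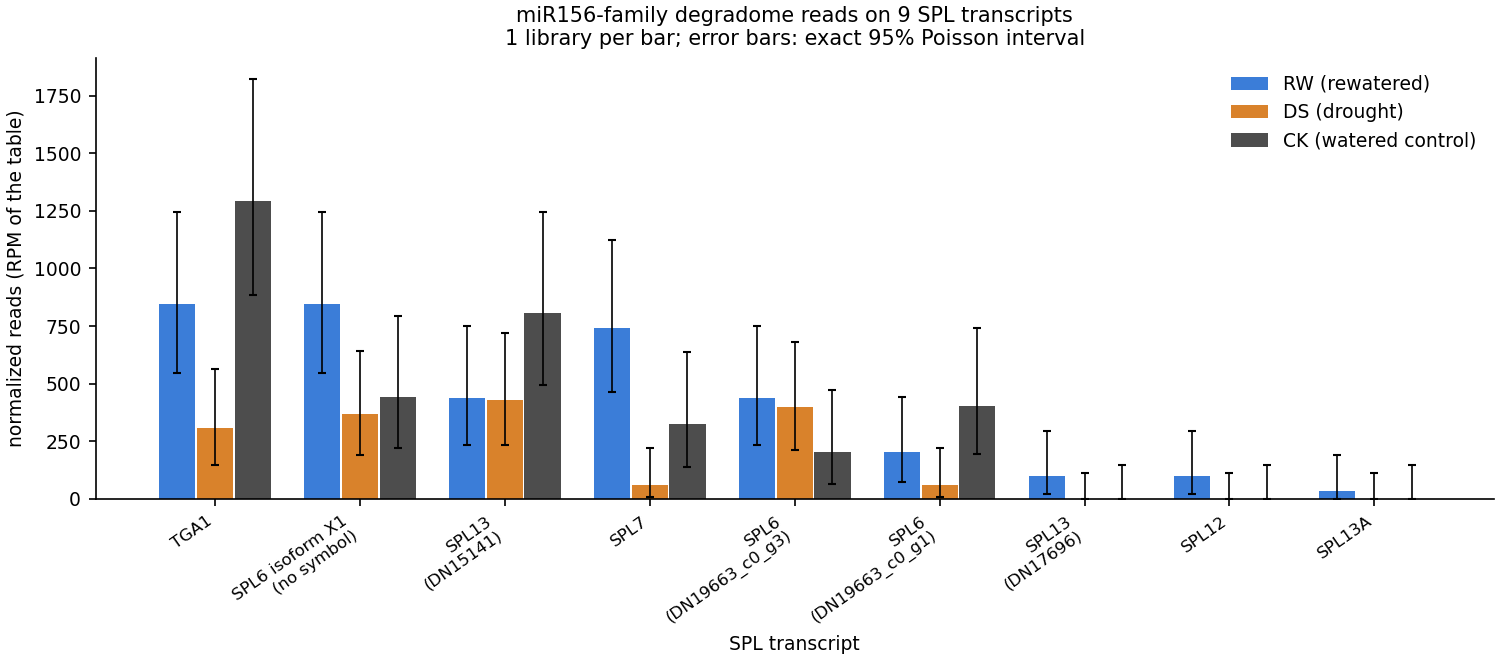
miR156 reads per 1000000 of the table (vertical axis, RPM) on each of 9 SPL transcripts, with bars for RW, DS and CK and exact 95% Poisson intervals that cover counting error only. TGA1 stands at 844 RPM in RW, 306 RPM in DS and 1291 RPM in CK, SPL7 at 743, 61.1 and 323 RPM, and the 3 transcripts on the right have reads in RW alone.

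The miR156 name under which reads were listed often changed between libraries while the transcript stayed the same. Of 21 combinations of an SPL transcript and a library with reads, 12 had all reads under 1 name and 9 had reads under 2 names. Of the 6 transcripts listed in all 3 libraries, the deepest name differed between libraries in 3 and was the same in 3. A tie of 2 names in DS for SPL6 DN19663_c0_g1 was counted as the same.

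TGA1 kept gma-miR156c, with 25 reads in RW, 9 in DS and 32 in CK. SPL13 DN15141 kept mtr-miR156g-5p, with 13, 14 and 19 reads. SPL6 DN19663_c0_g1 was mostly under gma-miR156a_R+1 in RW and CK, with 6 reads in RW, 1 in DS and 7 in CK. The name gma-miR156b_L+1R-1 had 1 read in DS, a tie there, and 3 in CK. The remaining transcripts changed names.

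SPL7 was listed with gma-miR156a_R+1 (20 reads) and gma-miR156b_L+1R-1 (2 reads) in RW, but with mtr-miR156b-5p in DS (2 reads) and CK (8 reads). The SPL6 isoform X1 transcript was listed with mtr-miR156b-5p in RW (25 reads) and mostly so in CK (10 reads), but with gma-miR156a_R+1 in DS (11 reads). For SPL6 DN19663_c0_g3 all 13 reads of DS were under mtr-miR156b-5p, which had none of its reads in RW or CK.

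**Figure D2:**
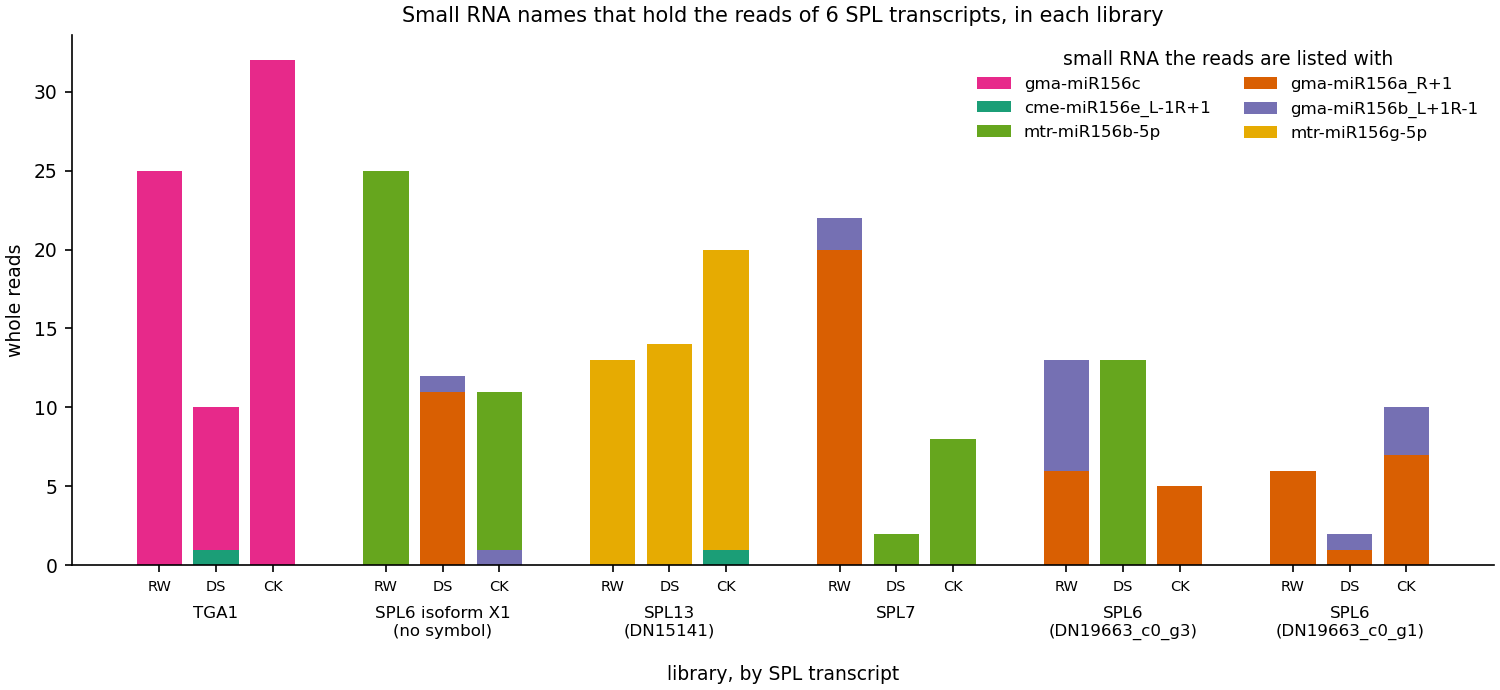
Whole reads (vertical axis) on the 6 SPL transcripts listed in all 3 libraries, with bars for RW, DS and CK and colours for the miR156 name that holds the reads. TGA1 and SPL13 keep their colour, whereas SPL7 has 20 of its 22 reads under gma-miR156a_R+1 in RW and all of its 2 and 8 reads under mtr-miR156b-5p in DS and CK.

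Summed over the SPL transcripts, miR156 reads were low in DS. They came to 111 reads (3748 RPM, 3083 to 4513) in RW, 53 reads (1620 RPM, 1213 to 2119) in DS and 86 reads (3469 RPM, 2775 to 4284) in CK. As a share of the table this was 0.375% (exact Clopper-Pearson 95% interval 0.308 to 0.451) in RW, 0.162% (0.121 to 0.212) in DS and 0.347% (0.278 to 0.428) in CK. The number of SPL transcripts listed was 9 in RW, 6 in DS and 6 in CK, with 12.3, 8.83 and 14.3 reads per listed transcript.

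The sum stood at 0.467 times CK in DS (exact 95% interval 0.325 to 0.665), at 2.31 times DS in RW (1.65 to 3.27) and at 1.08 times CK in RW (0.808 to 1.45). The interval excluded 1 in the comparisons with DS and included it in RW against CK. These 3 ratios rest on the same 3 libraries, so the low DS count enters both the DS/CK and the RW/DS ratio. Without TGA1, the deepest member, the sum was 0.603 (0.395 to 0.918) in DS/CK, 2.21 (1.52 to 3.26) in RW/DS and 1.33 (0.938 to 1.91) in RW/CK. The transcripts with the symbols SPL6 and SPL7 alone gave 0.560 (0.281 to 1.10), 2.66 (1.48 to 5.0) and 1.49 (0.875 to 2.60), so with these few reads the DS/CK interval included 1.

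The makeup of the sum was also compared, without a test. TGA1 held 22.5% of the SPL reads (15.1 to 31.4) in RW, 18.9% (9.44 to 32.0) in DS and 37.2% (27.0 to 48.3) in CK. SPL7 held 19.8% (12.9 to 28.5) in RW, 3.77% (0.460 to 13.0) in DS and 9.30% (4.10 to 17.5) in CK. SPL6 DN19663_c0_g3 held 11.7% (6.39 to 19.2) in RW, 24.5% (13.8 to 38.3) in DS and 5.81% (1.91 to 13.0) in CK. The intervals of the libraries overlap for TGA1 and SPL7. Those of DS and CK do not for SPL6 DN19663_c0_g3, where the split of reads within its component is uncertain. In RW the leading members were TGA1, the SPL6 isoform X1 transcript and SPL7, in DS SPL13 and SPL6 DN19663_c0_g3, and in CK TGA1, and the intervals of neighbours in each order overlap.

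Drought was compared with control by an exact conditional binomial test on each pair with at least 10 reads over both libraries, adjusted by Benjamini-Hochberg over all 892 pairs tested. Of the SPL transcripts 6 were tested, 2 were lower in DS, 0 were higher and 4 did not pass, and over all pairs 9.30% were lower and 12.3% were higher. 5 of the 6 ratios were below 1, with a median log2 ratio of -1.50 against 0.15 over all pairs tested. Without the adjustment 3 of the 6 had exact binomial p under 0.05, but the share of all pairs under that limit was not counted.

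TGA1 fell to 0.237 times CK in DS (0.104 to 0.494, adjusted exact binomial p = 0.00024). SPL6 DN19663_c0_g1 fell to 0.152 times (0.0161 to 0.711, adjusted exact binomial p = 0.0344), a call that rests on 2 reads in DS against 10 in CK. Of the 892 pairs tested 54 had a ratio as low as that of TGA1 or lower, and 27 one as low as that of SPL6 DN19663_c0_g1. The SPL6 call ended with mapped reads, no scaling, minimums of 1 or 5 reads and the deepest entry only, and when the 3 transcripts of its component were taken as 1, which stood at 0.758 times (0.345 to 1.66).

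SPL7 stood at 0.189 times CK in DS (0.0196 to 0.949, adjusted exact binomial p = 0.0894), SPL13 DN15141 at 0.530 times (0.248 to 1.10, adjusted exact binomial p = 0.219) and the SPL6 isoform X1 transcript at 0.827 times (0.334 to 2.07, adjusted exact binomial p = 0.861). SPL6 DN19663_c0_g3 was the only tested SPL with a ratio above 1, at 1.97 times (0.659 to 7.06, adjusted exact binomial p = 0.440). The difference between the SPL6 transcripts was not tested.

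Rewatering was compared with drought in the same way over 1020 pairs. Of 5 SPL transcripts tested 2 were higher in RW, 0 were lower and 3 did not pass, and over all pairs 9.31% were higher and 9.71% were lower. All 5 ratios were above 1, with a median log2 ratio of 1.20 against -0.01 over all pairs tested. Unadjusted exact binomial p was under 0.05 for 3 of them, again without a count over all pairs.

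SPL7 rose to 12.2 times DS in RW (2.99 to 107, adjusted exact binomial p = 0.00019), where 25 of the 1020 pairs had a ratio as high or higher. The interval is wide because DS had 2 reads. The assembly component of SPL7 also holds SPL1 DN25628_c0_g1, with 1 read in RW and 5 in DS under nta-miR482a. The split of reads between them is uncertain, and they were not summed. TGA1 rose to 2.76 times DS (1.28 to 6.44, adjusted exact binomial p = 0.0352), and this call ended under no scaling, the median of ratios, minimums of 1 or 5 reads, and all small RNAs, with adjusted exact binomial p = 0.0791, 0.0534, 0.258, 0.0642 and 0.0571. Without SPL7 the SPL sum still stood at 1.93 times DS (1.35 to 2.78).

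The SPL6 isoform X1 transcript stood at 2.30 times DS in RW (1.11 to 5.03, adjusted exact binomial p = 0.0828). SPL13 DN15141 at 1.03 times (0.444 to 2.35) and SPL6 DN19663_c0_g3 at 1.10 times (0.472 to 2.59) lay near 1, with adjusted exact binomial p = 1 and 0.947. SPL6 DN19663_c0_g1 had 8 reads over both libraries and was not tested, with a ratio of 3.31 (0.593 to 33.6).

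Between RW and CK 6 SPL transcripts were tested and 0 passed in either direction by the exact binomial test with Benjamini-Hochberg adjustment. The unadjusted p was under 0.05 for 1 of them, and pairs under that limit were not counted over the table. Over all 855 pairs tested 7.49% were lower and 7.37% were higher in RW. 3 of the 6 SPL ratios were below 1 and 3 were above, with a median log2 ratio of 0.16 against 0.12 over all pairs. SPL7 was at 2.30 times CK (0.987 to 5.98), SPL6 DN19663_c0_g3 at 2.18 times (0.728 to 7.80) and the SPL6 isoform X1 transcript at 1.90 times (0.903 to 4.28). TGA1 was at 0.654 times CK (0.372 to 1.14), SPL13 DN15141 at 0.544 times (0.249 to 1.15) and SPL6 DN19663_c0_g1 at 0.502 times (0.150 to 1.53). Each of these intervals reaches below 0.5 or above 2, so these counts are compatible with changes of that size as well as with none. Scaled to mapped reads, SPL7 at 3.54 times and the SPL6 isoform X1 transcript at 2.93 times passed, with adjusted exact binomial p = 0.00919 and 0.0128. Under that scaling 188 of the 855 pairs were called higher in RW, against 63 with table totals.

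**Figure D3:**
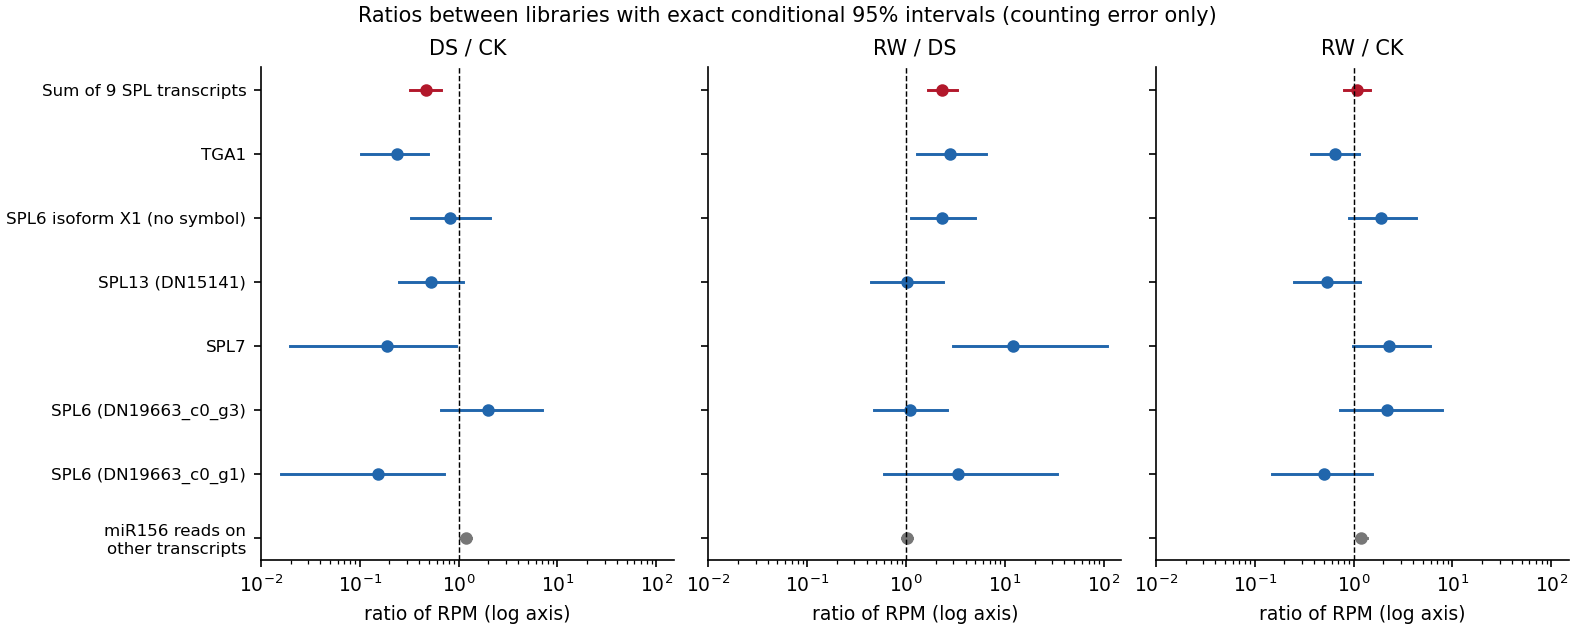
Ratio of RPM on a log axis for DS/CK, RW/DS and RW/CK, with points for the sum of 9 SPL transcripts, 6 SPL transcripts and miR156 reads on other transcripts, and lines for exact conditional 95% intervals. The sum lies at 0.467, 2.31 and 1.08, SPL7 reaches 12.2 in RW/DS, and the miR156 reads on other transcripts stay between 1.01 and 1.19.

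The scaling of the libraries bears on the size of these ratios. Relative to table totals, scaling to the mapped reads of each library multiplies every DS/CK ratio by 1.45 and every RW/CK ratio by 1.54, and shifts the median log2 ratio of all pairs tested to 0.69 and 0.74. Pairs called higher in DS made up 57.0% of calls in DS/CK with table totals, 75.4% with no scaling, 80.8% with mapped reads and 60.1% with the median of ratios. In RW/CK those higher in RW were 49.6%, 70.8%, 86.2% and 46.0%, and in RW/DS 49.0%, 40.9%, 54.4% and 43.4%. The SPL sum in DS/CK was 0.467, 0.616 (0.429 to 0.878), 0.678 (0.472 to 0.965) and 0.489 (0.341 to 0.697) in that order of scalings, and below 1 in each. In RW/CK it was 1.08, 1.29 (0.965 to 1.73), 1.66 (1.24 to 2.23) and 1.06 (0.794 to 1.42), and the interval excluded 1 only with mapped reads.

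**Figure D4:**
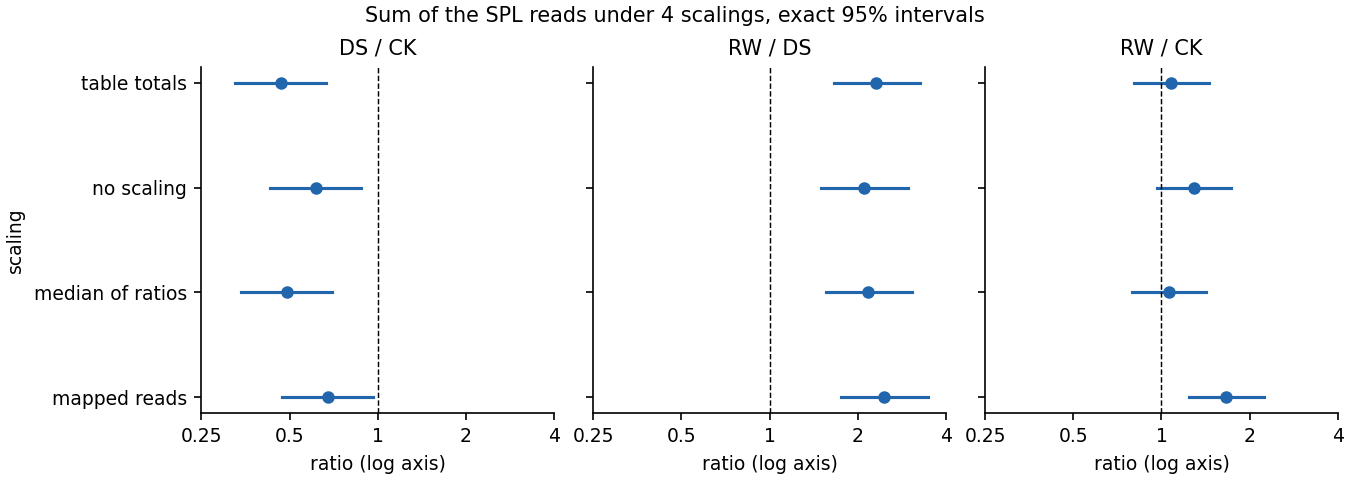
Ratio of the summed SPL reads on a log axis under 4 scalings, with exact 95% intervals, for DS/CK, RW/DS and RW/CK. DS/CK lies between 0.467 and 0.678 and RW/DS between 2.09 and 2.45, whereas RW/CK lies at 1.06 to 1.66.

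A comparison within each library does not depend on its scaling. Of all miR156 reads, the share on SPL transcripts was 16.9% (111 of 656 reads, exact Clopper-Pearson 95% interval 14.1 to 20.0) in RW, 8.18% (53 of 648, 6.19 to 10.6) in DS and 18.4% (86 of 468, 15.0 to 22.2) in CK. The DS interval lay below those of RW and CK, which overlap. All entries were counted, without the alignment score limit that the paper set for its targets, so these are not shares of guided cuts. With the names of the 3p arm left out, the share was 46.1% (39.6 to 52.6) in RW, 25.4% (19.6 to 31.8) in DS and 48.3% (40.8 to 55.9) in CK, with DS again the low library.

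**Figure D5:**
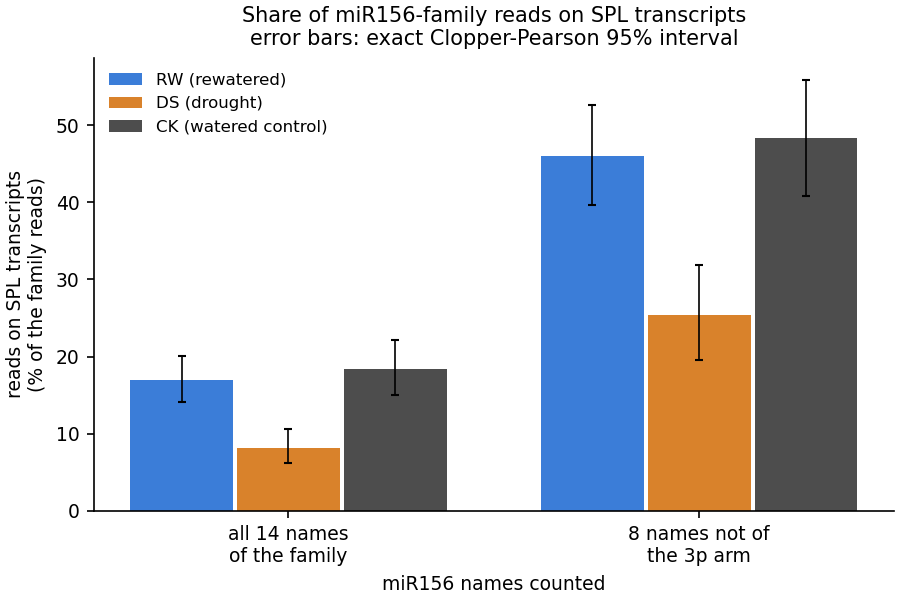
Share of miR156 reads that lie on SPL transcripts (vertical axis, %) for RW, DS and CK, with all 14 names and with the 8 names not of the 3p arm, and exact Clopper-Pearson 95% intervals. DS stands at 8.18% and 25.4%, below RW at 16.9% and 46.1% and CK at 18.4% and 48.3%.

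The miR156 reads on transcripts other than SPL did not share the low DS value. They came to 545 in RW, 595 in DS and 382 in CK, which is 1.18 times CK in DS (1.04 to 1.35), 1.01 times DS in RW (0.899 to 1.14) and 1.19 times CK in RW (1.05 to 1.36). They lay on 261 transcripts, whose median was 2 reads in all 3 libraries together, whereas that of the 9 SPL transcripts was 31. At least 10 reads were reached by 6 of the 9 SPL transcripts, by 34 of the 261 others (13.0%) and by 13.0% of all pairs of the table. Of the other transcripts 21 were tested in DS/CK with 1 lower and 2 higher, 28 in RW/DS with 1 lower and 1 higher, and 23 in RW/CK with 0 lower and 3 higher. Over all pairs the shares lower and higher were 9.30% and 12.3% in DS/CK, 9.71% and 9.31% in RW/DS, and 7.49% and 7.37% in RW/CK.

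Small RNAs other than miR156 had few reads on SPL transcripts, and none of these pairs reached 10 reads. They came to 9 reads in RW, 9 in DS and 5 in CK, so that miR156 held 92.5% (86.2 to 96.5) of the reads on SPL transcripts in RW, 85.5% (74.2 to 93.1) in DS and 94.5% (87.6 to 98.2) in CK. TGA1 was kept because it was listed with miR156, which raises this share. Without TGA1 it was 90.5% (82.8 to 95.6) in RW, 84.3% (71.4 to 93.0) in DS and 93.1% (83.3 to 98.1) in CK. The ratio of the reads with other small RNAs was 1.36 (0.410 to 5.18) in DS/CK, 1.10 (0.389 to 3.14) in RW/DS and 1.51 (0.453 to 5.72) in RW/CK, each with an interval that includes 1.

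The 4 SPL transcripts with no miR156 entry were 3 annotated as SPL1 and 1 with the symbol SPL16, annotated as SPL14. In Arabidopsis SPL1 and SPL14 are long SPL factors without a miR156 site. SPL1 DN25704 had 5 reads in RW, 2 in DS and 1 in CK, those of RW and DS with a ptc-miR472a variant. SPL1 DN25628_c0_g1, from the same assembly component as SPL7, had 1 read in RW, 5 in DS and 0 in CK with nta-miR482a. SPL16 had 3 reads in RW alone, and SPL1 DN22973 had 1 read in DS and 1 in CK. SPL13 DN15141 had a further 2 reads in CK, and TGA1 1 read in DS and 1 in CK, with small RNAs other than miR156. None of these counts separates the libraries.

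Genes of the same developmental pathway were read from lists of names. The miR172 targets are AP2-like repressors of flowering that come after the SPL factors by way of miR172. They had 101 reads in RW, 33 in DS and 132 in CK over 4 transcripts. Of these, 2 of 3 tested were lower in DS than in CK, 3 of 4 tested were higher in RW than in DS, and 0 of 4 passed in RW against CK by the exact binomial test. Over all pairs 9.30% were lower in DS than in CK and 9.31% were higher in RW than in DS, and in RW against CK 7.49% were lower and 7.37% higher. The deepest, RAP2-7 DN22709, had 64 reads in RW, 20 in DS and 84 in CK, and fell to 0.180 times CK in DS (0.105 to 0.296, adjusted exact binomial p = 3.2e-13). In RW it rose to 3.54 times DS (2.11 to 6.17, adjusted exact binomial p = 3.4e-06). A further RAP2-7 transcript, DN16588, had 7 reads in RW, 11 in DS and 11 in CK, with no call. It stood at 0.758 times CK in DS (0.298 to 1.93) and at 0.703 times DS in RW (0.231 to 1.99). With the symbol AP2, DN22322 had 21, 1 and 31 reads in RW, DS and CK, and DN20294 had 9, 1 and 6. These ratios share the libraries of the SPL ratios.

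Floral MADS genes, some of which SPL factors activate in Arabidopsis, had 15 reads in RW, 15 in DS and 8 in CK over 4 transcripts, none of them listed here with miR156. SOC1 DN19826, a flowering integrator listed with miR169, had 3 reads in RW, 11 in DS and 3 in CK, and stood at 2.78 times CK in DS (0.734 to 15.5, adjusted exact binomial p = 0.269). DELLA, TOPLESS and SMXL proteins, known to bind SPL factors in Arabidopsis or rice, had at most 5 reads in any of 8 pairs and could not be tested. Makers and carriers of miRNAs had 24 reads in RW, 16 in DS and 32 in CK over 18 pairs. Among them DCL1, which cuts miRNA precursors, had 5, 2 and 6 reads with miR162 and stood at 0.698 times CK in RW (0.168 to 2.74), and Dicer homolog 2 had 2, 5 and 3 reads with miR169.

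The SPL sum had 42.4% of its RPM in RW, 18.3% in DS and 39.3% in CK. Among 392 pairs with at least 30 reads the pairs nearest to these shares, by Euclidean distance over the 3 libraries, were sought. They were the Rubisco activase transcript RCA2 DN13938 with the predicted small RNA PC-3p-78936_58 (16, 7 and 12 reads in RW, DS and CK, distance 0.0162), ARF6, an auxin response factor, with miR167 (80, 42 and 58 reads, 0.0301), an uncharacterized transcript with miR6300 (20, 11 and 17 reads, 0.0322), a hypothetical protein with miR319 (63, 34 and 46 reads, 0.0330) and PETH, a leaf ferredoxin-NADP reductase, with miR171 (85, 49 and 71 reads, 0.0363). Likeness over 3 libraries is a description of these counts.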

How the data were processed

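Leaf RNA of 3 conditions was made into 1 degradome library each. The authors sequenced the libraries, sought cut sites with ACGT101-DEG and CleaveLand4 on their own transcript assembly, and deposited RPM values, reads per 1000000 of the table, for each small RNA on each transcript. Whole reads were recovered by dividing by the value of 1 read, which gave whole numbers within 0.01 of a read for 100% of values. Samples were grouped by title. Cut positions and alignment scores were not used here.

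The members, the gene lists and the tests were chosen with earlier results of these data known. Entries of miR156 and miR157 were summed per transcript, and entries of any other family likewise. For pairs with at least 10 reads in 2 libraries, the split of reads was set against that of the table totals by an exact binomial test (two-sided), with Benjamini-Hochberg adjustment over all pairs and a threshold of 0.05. Ratios carry exact conditional 95% intervals, levels exact Poisson intervals and shares exact Clopper-Pearson intervals. Because PCR copies could not be told from molecules, these intervals and the floor of 3 reads describe counting error alone. The test was tested on counts simulated under its own binomial model, with changes placed only in deeper pairs. Variation between libraries and PCR copies were not simulated. SPL transcripts were all named, together with the 8 deepest miR156 pairs on other transcripts, the deepest list members with at least 10 reads, and the 5 pairs nearest to the SPL sum. Transcripts below these limits are named where a count turned on them. Of 16 pairs matched by the partner list 8 were left out, after their values were seen, as accidental matches. Alternatives were other scalings, read minimums, the deepest entry only, all small RNAs, Fisher's exact test and subsets of transcripts. Python 3.11.15, pandas 2.3.3, scipy 1.17.1 and matplotlib 3.10.9 were used.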

Additional observations from a re-analysis of the deposited data

How the results depend on the processing

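No paired analysis was possible because each condition had 1 library. For the same reason no replicate could be left out. The SPL sum stayed below CK in DS and above DS in RW under every alternative run. It moved to 0.678 in DS/CK and 1.66 in RW/CK with mapped reads, and to 1.49 in RW/CK with the symbols SPL6 and SPL7 alone. SPL transcripts lower in DS than in CK numbered 1 instead of 2 with mapped reads, no scaling, minimums of 1 or 5 reads, the deepest entry only, and the 3 DN19663_c0 transcripts as 1. The lost call was SPL6 DN19663_c0_g1, with adjusted exact binomial p = 0.109, 0.117, 0.259 and 0.0630 under the first 4 of these. SPL transcripts higher in RW than in DS numbered 1 instead of 2 with no scaling, the median of ratios, minimums of 1 or 5 reads, and all small RNAs, where TGA1 had adjusted exact binomial p = 0.0791, 0.0534, 0.258, 0.0642 and 0.0571. Those higher in RW than in CK numbered 2 instead of 0 with mapped reads. Calls higher in RW over all pairs were then 188, against 63 with table totals. Fisher's exact test changed no SPL call.

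Direction turned for 4 transcripts, none of which passed in that comparison. SPL13 DN15141 in RW/DS was 0.963 with the median of ratios and 0.929 with no scaling. SPL6 DN19663_c0_g3 in RW/DS was 0.595 with the deepest entry only. TGA1 in RW/CK was 1.01 with mapped reads, and the SPL6 isoform X1 transcript in DS/CK was 1.20 with mapped reads and 1.09 with no scaling. The share of miR156 reads on SPL transcripts was 46.1%, 25.4% and 48.3% in RW, DS and CK without names of the 3p arm. Without the deepest transcript it was 13.6% (11.0 to 16.6) in RW, 6.74% (4.92 to 8.97) in DS and 12.4% (9.44 to 15.8) in CK. The settings without 3p names, without SPL7 and with the DN19663_c0 transcripts as 1 were chosen after seeing the data. The cause of these changes was not tested, apart from the read minimums, which alter how many pairs are adjusted over, and the scalings, which multiply all ratios alike.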

Other observations

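The deepest miR156 pairs outside the SPL factors were led by transcripts of ribosomal and chloroplast proteins, and 6 of the 8 deepest were listed with names of the 3p arm only. RPL22B, a protein of the large ribosomal subunit, was listed with names that give no arm. It had 44 reads in RW, 69 in DS and 45 in CK, with no call in any comparison. The Rubisco activase transcript RCA2 DN25057 had 37 reads in RW, 93 in DS and 23 in CK, all under 3p names. It rose to 3.06 times CK in DS (1.92 to 5.07, adjusted exact binomial p = 3.1e-06) and fell to 0.440 times DS in RW (0.292 to 0.650, adjusted exact binomial p = 0.00023). DS was thus its highest library, whereas DS was the lowest for the SPL sum, and the difference between them was not tested.

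PRP38, a splicing factor, had 17 reads in RW, 16 in DS and 2 in CK, and was higher than CK in DS at 6.06 times (1.43 to 54.3, adjusted exact binomial p = 0.0349) and in RW at 7.11 times (1.69 to 63.5, adjusted exact binomial p = 0.0215). An uncharacterized transcript, DN18976, had 27 reads in RW, 9 in DS and 5 in CK, and was higher in RW than in DS at 3.31 times (1.51 to 8.01, adjusted exact binomial p = 0.00899) and than in CK at 4.52 times (1.72 to 15.0, adjusted exact binomial p = 0.00816). The other 4 of the 8, DN16448 with 17, 23 and 18 reads in RW, DS and CK, a serine hydroxymethyltransferase with 13, 14 and 9, CP31A with 8, 12 and 9 and VEP1 with 8, 15 and 5, had no call.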
